A study of Mus musculus with 4 samples.

Results

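The genes described here are the E2F transcription factors E2f1 to E2f8 and the RB pocket proteins Rb1 and Rbl1. They were chosen by symbol from the mRNA table of the series, which gave 10 of 22287 genes. The rule itself uses no measured value, but it was set with earlier results of these data known. N2a is a mouse neuroblastoma cell line (strain C57BL/6 per the labels) that divides in culture and has neuron-like properties. The total RNA library of N2a cells labelled N2a-Mn, cultured with 300 µM manganese for 48 h, was compared with that of N2a cells without it. Both are depleted of ribosomal RNA. The treatment text is the same for every library, so the titles alone tell the groups apart. Each condition had 1 library, which leaves no replicate check: a ratio below sets library against library, not condition against condition.

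E2F proteins bind DNA, mostly as pairs with a DP protein, and control genes that a cell needs to copy its DNA. E2f1, E2f2 and E2f3 are the classical activators, E2f4, E2f5 and E2f6 act mostly as repressors, and E2f7 and E2f8 are atypical repressors that bind without a DP partner. Pocket proteins hold E2F in check until cyclin-dependent kinases phosphorylate them at the passage from G1 into S phase. Rb1 binds chiefly the activators, and Rbl1 (p107) and Rbl2 (p130) bind chiefly E2f4 and E2f5. In neural lineages, loss of E2F activity accompanies the exit from the cell cycle, and Rb1 is a classical tumour suppressor.

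The untreated library held 13972452 reads assigned to mRNA genes and the Mn-treated library 14606979. Of the 22287 genes, 11872 had at least 20 reads over both libraries and are called measured, and all 10 members were among them. Log2 ratios divide a gene's share of the column total with manganese by its share without it, with 0.5 added to each count. Brackets hold 95% intervals for counting error alone. The middle measured gene had a log2 ratio of 0.18, so a ratio is read against that value. Scaling the libraries by their median ratio shifts every gene down by this amount. Of the 18 sympathoblast and neuroblastoma markers 16 were measured, among them Hand2 with 2674 and 2951 reads and Prph with 47911 and 67163. The summed level of these 18 markers was 6749 and 7932 RPM (reads scaled to the column total). Markers of astrocytes, microglia, fibroblasts and endothelium summed to between 3.58 and 10.1 RPM in either library, with Aqp4, Slc1a2, Cx3cr1 and Aif1 at 0 reads in both. In each of these lists 1 gene was measured. These were Aldh1l1 with 63 and 53 reads, Tmem119 with 140 and 118, Col1a1 with 42 and 33, and Pecam1 with 68 and 76. The oligodendrocyte list summed to 63.8 and 72.9, mostly from Cnp, with Mag and Sox10 at 0.

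Of the 10 members, E2f1 and E2f2 were lower with manganese by 1.5-fold or more and Rb1 was higher by as much, while 7 lay within that range. Among all measured genes 5.97% were lower and 21.6% were higher by that factor. With median-ratio scaling E2f4 joined the lower genes, which made 3 lower and 1 higher, against 11.3% and 13.4% of all measured genes. By 2-fold the members numbered 2 lower and 0 higher, against 1.69% and 7.26%. The direction was therefore not shared by the family: its 3 activators lay on both sides of the middle gene. In bulk RNA, fewer cells that express a gene and less of its RNA per cell cannot be told apart.

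**Figure D1:**
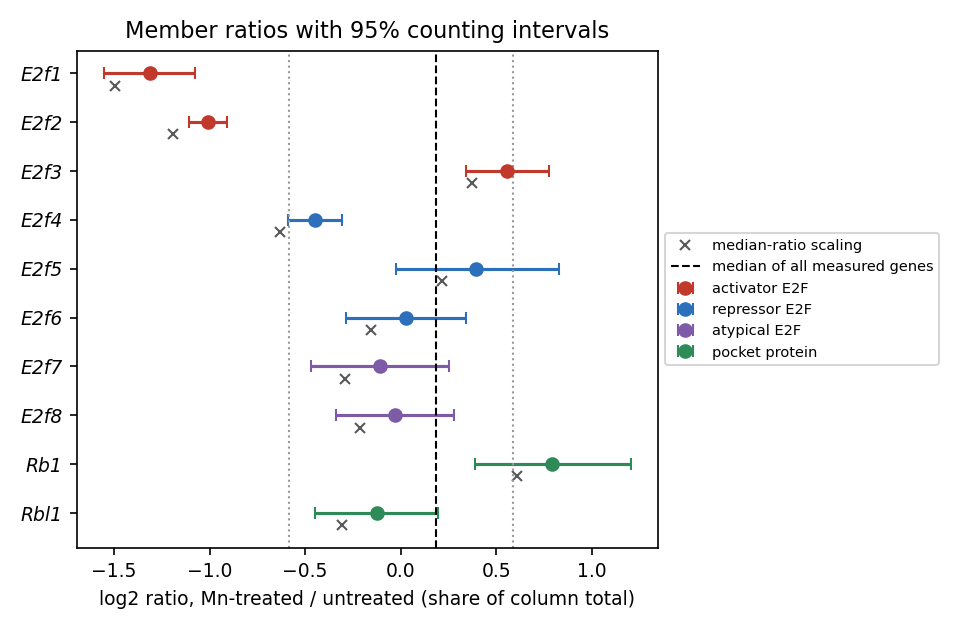
Log2 ratio of each member, Mn-treated over untreated library (x axis), with 95% counting intervals as bars, crosses for median-ratio scaling, a dashed line at the middle measured gene and dotted lines at 1.5-fold. E2f1 at -1.31 and E2f2 at -1.01 lie left of the lower dotted line, Rb1 at 0.79 lies right of the upper line, and E2f3 at 0.56 lies just inside it.

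E2f1 (ENSMUSG00000027490), an activator tied to S-phase entry, was covered by 497 reads without manganese and 209 with it. That is 2.48-fold lower, or -1.31 in log2 terms [-1.55 to -1.08], at percentile 0.97 of all measured genes. Its deposited counts are fractional, the only such case among the members, so some of its reads could be shared with another gene model. E2f2 (ENSMUSG00000018983), an activator known for its role in blood cell division, had the most reads of all members. Its reads numbered 2458 without and 1279 with manganese, 2.01-fold lower, or a log2 ratio of -1.01 [-1.11 to -0.91], at percentile 1.68. E2f3 (ENSMUSG00000016477), which encodes a long and a short activator isoform from separate start sites, went the other way. It was covered by 291 reads without manganese and 448 with it, 1.47-fold higher, or 0.56 in log2 terms [0.34 to 0.78], at percentile 77.0. In the authors' deposited table, which takes the ratio of FPKM values (reads scaled to transcript length and library size), E2f3 is at 0.64 and so past 1.5-fold. With those values 2 members are higher, E2f3 and Rb1, against 21.7% of measured genes, and 2 are lower, against 6.93%. The gene table does not separate its isoforms.

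Because a ratio of reads between genes within a library needs no scaling, the activators were also set against each other. These pairs, and those of other members below, were chosen after their values were seen. For each E2f3 read there were 1.71 E2f1 reads without manganese and 0.47 with it, a log2 change of -1.87 [-2.20 to -1.55]. For E2f2 over E2f3 the reads went from 8.45 to 2.85, a log2 change of -1.56 [-1.80 to -1.33]. E2f1 and E2f2 lay close together, with a log2 change of -0.31 [-0.57 to -0.05] in their ratio. E2f1 and E2f2 thus parted from E2f3 whatever the scaling of the libraries.

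Among the repressors, E2f4 (ENSMUSG00000014859), the main E2F of resting cells, had counts of 972 without and 745 with manganese. Its log2 ratio was -0.45 [-0.59 to -0.31], or -0.63 with median-ratio scaling, at percentile 9.52. E2f2 moved further than E2f4 within the same libraries: the log2 change of the E2f2 to E2f4 read ratio was -0.56 [-0.73 to -0.39]. E2f5 (ENSMUSG00000027552), a partner of p107 and p130, had counts of 82 and 113, which put it at 0.40 [-0.02 to 0.83]. That interval holds both 0 and the middle gene. E2f6 (ENSMUSG00000057469), which lacks the pocket-protein binding region and represses through Polycomb proteins, had 168 and 179 reads, at 0.03 [-0.28 to 0.34]. Its sign turned with median-ratio scaling, to -0.16, and at this depth no difference from 0 was detectable for E2f5 or E2f6.

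The atypical members E2f7 and E2f8 are themselves E2F target genes that feed back on E2f1. E2f7 (ENSMUSG00000020185) had counts of 134 and 130, at -0.11 [-0.47 to 0.25]. E2f8 (ENSMUSG00000046179) had 174 and 178 reads, at -0.03 [-0.34 to 0.28]. The log2 change of the E2f7 to E2f8 read ratio was -0.08 [-0.56 to 0.40], an interval that allows differences of up to about that size either way. For E2f7 the authors' deposited table gives -0.37, because its FPKM and its reads differ in their ratios. The reads behind 1 unit of FPKM went from 56.8 to 71.4, or 1.26 times, against 1.03 times for the median of 10576 genes. That term grows with the transcript length used in the FPKM, and its cause for E2f7 was not tested.

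Of the pocket proteins, Rb1 (ENSMUSG00000022105) was covered by 80 reads without manganese and 145 with it. It was thus 1.73-fold higher, at 0.79 [0.39 to 1.21], or 0.61 with median-ratio scaling, at percentile 87.6. Rbl1 (ENSMUSG00000027641), which is itself switched on by E2F at S-phase entry, had 167 and 160 reads, at -0.13 [-0.45 to 0.20]. There were 0.48 Rb1 reads for each Rbl1 read without manganese and 0.91 with it, a log2 change of 0.92 [0.40 to 1.45]. Set against E2f1, the gap was wider by construction, since E2f1 had the lowest and Rb1 the highest log2 ratio of the members. E2f1 had 6.21 reads for each Rb1 read without manganese and 1.44 with it, a log2 change of -2.11 [-2.59 to -1.63].

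Levels between genes were compared per length, as FPKM by the authors. In the untreated library E2f2 at 21.7 and E2f4 at 20.4 stood far above the other E2F genes. E2f1 followed at 7.61 and the remaining 5 lay between 1.93 and 2.95. In the Mn-treated library E2f4 at 15.1 came first and E2f2 at 10.9 second, followed by E2f3 at 3.77, E2f6 at 3.21 and E2f1 at 3.10. The summed FPKM of the 8 E2F genes was 61.4 and 42.5. The activators made up 51.7% of that sum without manganese (FPKM 31.8) and 41.9% with it (17.8). The repressors E2f4, E2f5 and E2f6 made up 41.2% and 49.2% (FPKM 25.3 and 20.9), and the atypical pair 7.05% and 8.87% (4.33 and 3.77). The sums of these groups were thus lower with manganese although their shares were higher. E2f3 alone went from 3.94% to 8.87%. Pocket proteins were at low levels: Rb1 had FPKM 0.72 and 1.26, and Rbl1 1.44 and 1.33. No SD can be given for these values, and mRNA levels say nothing of the phosphorylation that sets pocket-protein activity.

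**Figure D2:**
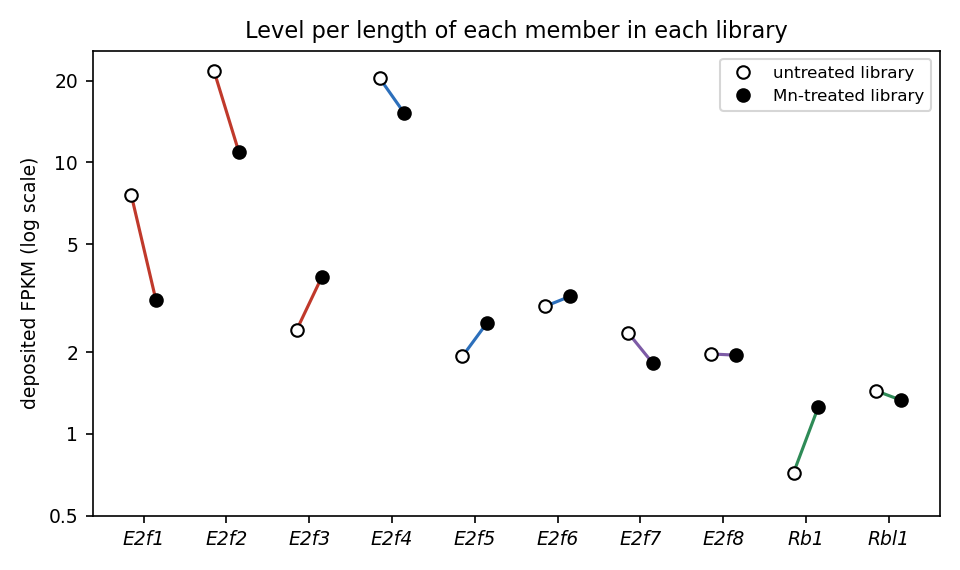
Deposited FPKM of each member (y axis, log scale) in the untreated (open) and the Mn-treated (filled) library, joined by a line coloured by role. E2f2 goes from 21.7 to 10.9 and E2f1 from 7.61 to 3.10, E2f3 and Rb1 go up, and E2f4 is the highest E2F in the Mn-treated library.

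Ratios in these libraries also moved with the length of the transcript. Reads per unit of FPKM in the untreated library, which grow with length, were split into quartiles over 10576 genes with an FPKM of at least 0.5 in both libraries. The median log2 ratio was -0.007 in the quartile of shortest genes and 0.09, 0.20 and 0.35 in the next ones. E2f2, E2f3, E2f8, Rb1 and Rbl1 all fell in the quartile of longest genes. There 28.1% of genes were higher by 1.5-fold or more and 1.63% were lower by as much. The 0.56 of E2f3 and 0.79 of Rb1 therefore stand beside a median of 0.35, and 0.35 lies inside the counting interval of E2f3 and below that of Rb1. E2f2 lay on the far side of the same median. E2f1 lay in the third quartile, where 2.57% of genes were at least 1.5-fold lower. The part of length in these ratios was not tested, and the list medians and counts below were not split by length.

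**Figure D3:**
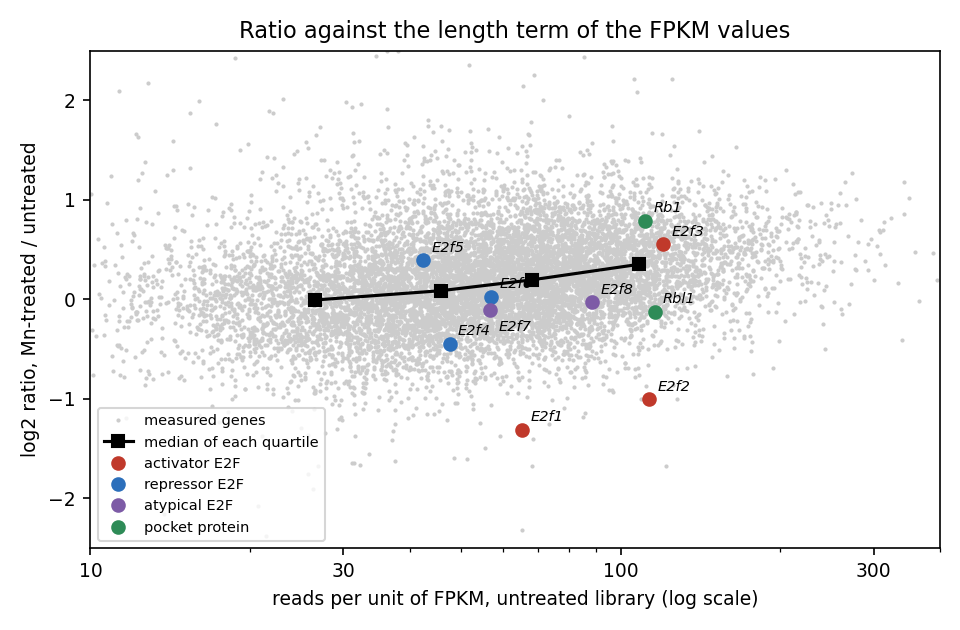
Log2 ratio of measured genes (y axis) against reads per unit of FPKM in the untreated library (x axis, log scale), with quartile medians as squares and the members coloured by role; 54 genes lie outside the axes. The medians climb from -0.007 to 0.35, E2f1 and E2f2 lie below them, and E2f3 and Rb1 lie above.

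The DP partners and the third pocket protein came next. Tfdp1, the main DP partner, had 1205 and 1260 reads, at 0.000 [-0.11 to 0.12], and Tfdp2 had 97 and 83, at -0.29 [-0.73 to 0.15]. Rbl2, the pocket protein of resting cells, had 138 and 145 reads, at 0.007 [-0.34 to 0.35]. In the authors' deposited table Rbl2 is at 1.42, with FPKM values of 1.17 and 3.14 on nearly the same reads, and the cause was not tested. MuvB is the core that joins E2f4 and p130 to silence cell-cycle genes, and then B-MYB (Mybl2) and FOXM1 to switch on mitotic genes. Of 8 genes of MuvB and its partners 1 was at least 1.5-fold higher and 1 lower, beside 21.6% and 5.97% of all measured genes. The lower gene was Mybl2, a classical E2F target, with 2315 and 1094 reads, 2.21-fold lower, at -1.15 [-1.25 to -1.04]. In the authors' deposited table Mybl2 is at -0.74, outside that interval, and the cause was not tested. Foxm1 had 1609 and 1289, at -0.38 [-0.49 to -0.28]. The core subunits Lin37 at -0.38, Rbbp4 at -0.06, Lin54 at 0.10 and Lin9 at 0.26 lay within 1.5-fold, the first 3 of them on fractional counts. The authors' deposited table has Lin9 at 0.64. The higher gene was Mybl1, at 0.61 on 58 and 93 reads, which was within 1.5-fold with median-ratio scaling and is named for that count only.

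The next list holds the kinases that phosphorylate pocket proteins and their cyclins, and also Cdc25a, Ccnh and Cdk7. Its median log2 ratio was -0.17 over 10 measured of 12 genes. At least 1.5-fold lower were 2 and higher were 0, beside 5.97% and 21.6% of all measured genes. Ccne1, the cyclin that completes RB phosphorylation, had 510 and 303 reads, at -0.81 [-1.03 to -0.61]. Cdk2, its kinase, had 687 and 413, at -0.80 [-0.98 to -0.62]. Ccne2, whose counts are fractional, was at -0.38 [-0.53 to -0.22]. Ccnd1 and Cdk4, which start RB phosphorylation, had 3516 and 3292 reads and 8210 and 7531 reads, at -0.16 and -0.19. Cdk6 had 0 and 5 reads and Ccnd2 had 0 and 6, too few to be measured. Cdc25a, a phosphatase that activates Cdk2 and a textbook E2F target, was at 0.06, and Ccnh and Cdk7 were at 0.05 and 0.17. All 5 measured inhibitors of 7 lay within 1.5-fold. Cdkn1a (p21) had 2105 and 1833 reads, at -0.26 [-0.35 to -0.17]. Cdkn1b (p27) had 665 and 837, at 0.27 [0.12 to 0.42]. Cdkn2a, an E2F-responsive inhibitor locus, was at -0.46 [-0.64 to -0.27], and at -0.64 with median-ratio scaling, which put it past 1.5-fold. Cdkn2c was at 0.06 and Cdkn2d at -0.05.

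Corepressors that pocket proteins recruit had a median of 0.34 over 15 genes, with 4 at least 1.5-fold higher and 0 lower, beside 21.6% and 5.97% of all measured genes. With median-ratio scaling there was 1 each way, beside 13.4% and 11.3%, so the higher count was near the background. Arid4b, a subunit of SIN3 complexes, had 103 and 211 reads, at 0.97 [0.62 to 1.32]; the authors' deposited table has it at -0.09. Smarca2, a remodelling ATPase, was at 0.76 and Kdm5a, a histone demethylase first found through its binding to RB, at 0.68. The other one past 1.5-fold, Arid4a, had 24 and 40 reads, at 0.66. At the lower end stood the histone methyltransferases Kmt5c at -0.41 and Suv39h1 at -0.28, with the deacetylase Hdac3 at -0.09. The Polycomb complex that E2f6 belongs to had a median of 0.40 over 10 genes, with 4 higher and 0 lower, beside the same 21.6% and 5.97%. With median-ratio scaling 2 were higher and 1 lower, beside 13.4% and 11.3%. Mga, its scaffold, had 381 and 715 reads, at 0.84 [0.66 to 1.03], and Rnf2, its ubiquitin ligase, had 368 and 587, at 0.61. Pcgf6, which defines this form of the complex, had 22 and 80 reads, at 1.77, and Ring1 had 45 and 71, at 0.59, both on fractional counts. Rybp was at 0.42, Max at 0.18 and Wdr5 at -0.08. In the authors' deposited table Max is at 0.95, which makes 5 genes of the complex higher there. L3mbtl2 was the lowest, with 2441 and 1712 reads, at -0.58 [-0.67 to -0.49]. Germline genes that this complex is known to silence were at or near 0, and 9 of 12 had 0 reads in both libraries. Of these 12 genes 0 were measured, beside 11872 of all 22287 genes. What keeps them low in these cells was not tested.

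Genes of E2F turnover had a median of -0.07 over 9 genes. Of them 2 were higher and 0 lower by 1.5-fold or more, beside 21.6% and 5.97% of all measured genes. The higher count was thus near the background. Mdm2, a ubiquitin ligase of p53 that also binds RB and E2F1, had 153 and 332 reads, at 1.05 [0.77 to 1.34], and Fbxw7, which marks cyclin E for destruction, was at 0.79 [0.40 to 1.20]. Usp11 was at 0.53. Skp2, which targets p27 and is an E2F target, had 177 and 176 reads, at -0.07 [-0.38 to 0.24]. Cks1b was at -0.38, Trim28 at -0.34 and Ccnf at -0.20.

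Textbook targets of E2F at the passage from G1 into S phase were lower as a list. All 51 were measured, with a median log2 ratio of -0.56 against 0.18 over all measured genes, and 47 of 51 lay below the middle gene. At least 1.5-fold lower were 22 and higher was 1, against 5.97% and 21.6% of all measured genes. With median-ratio scaling these were 31 and 1, against 11.3% and 13.4%. Cdc6, which loads the replicative helicase, had 861 and 281 reads, 3.20-fold lower, at -1.68 [-1.88 to -1.48]. By reads Mybl2 came next, at -1.15 (-0.74 in the authors' deposited table). Ung, which removes uracil from DNA, had 300 and 152 reads, at -1.04 [-1.34 to -0.76]. Toward the upper end lay the mismatch repair gene Msh6 at 0.33 (0.76 in the authors' deposited table) and the Polycomb methyltransferase Ezh2 at 0.24. The list's gene past 1.5-fold in the higher direction was Dbf4, on 36 and 69 reads with fractional counts, named for that count only. Ccne1, Ccne2, Cdc25a and Mybl2 stand in this list as well as in those above.

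Mitotic genes that MuvB controls with B-MYB and FOXM1 had a list median near the middle gene. It was 0.10 over 30 genes, and -0.087 with median-ratio scaling. At least 1.5-fold higher were 5 and lower was 1, beside 21.6% and 5.97% of all measured genes. With median-ratio scaling 3 were higher and 2 lower, beside 13.4% and 11.3%. The higher counts thus did not exceed the background share. Aurkb had 817 and 567 reads, at -0.59 [-0.75 to -0.43]. Cenpa was at -0.53 and Cdk1, which had 3358 and 2712 reads, at -0.37. Cenpf had 232 and 469 reads, at 0.95 [0.72 to 1.18], Mki67 was at 0.91 and Cenpe at 0.89. Tpx2 at 0.64 and Hmmr at 0.64 were the others past 1.5-fold. Mki67 is at -0.27 in the authors' deposited table and has fractional counts. Apoptosis genes that E2F1 can switch on had a median of 0.06 over 9 measured of 12, with 2 higher and 2 lower, beside 21.6% and 5.97% of all measured genes. With median-ratio scaling, or with the authors' deposited fold changes, 1 was higher. Both lower genes have fractional counts, and 0 were lower among genes with whole counts. Casp9 was at -0.63 [-0.82 to -0.45], Apaf1 at 0.06, Bcl2l11 at 0.37 and Ppp1r13b at 0.64. The others past 1.5-fold were Bbc3, with 80 and 5 reads, and Trp53inp1, with 14 and 54. For Trp73 and Pmaip1 both libraries gave 0 reads, which still allows up to 3 in each.

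**Figure D4:**
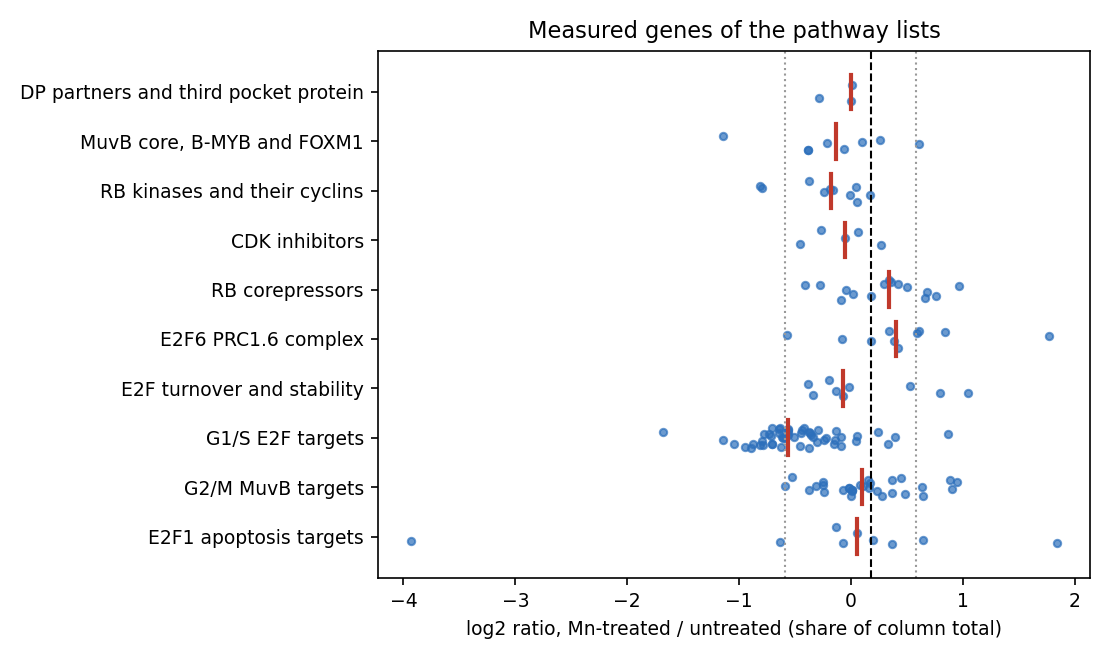
Log2 ratio of every measured gene (points, x axis) in the pathway lists (rows), with list medians as red bars, a dashed line at the middle measured gene and dotted lines at 1.5-fold. The list of targets at the passage into S phase has its median at -0.56 and the mitotic list at 0.10.

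Several E2F genes carry E2F-binding letters at their own start sites, so these stretches are shown beside the ratios. The letters searched were TTTCCCGC, TTTGGCGC, TTTCGCGC and TTTGCCGC, and the shorter core of each without its first T, on both strands; each longer match contains a core match. RefSeq promoter windows (GRCm38.p6) run from 250 bases before to 50 after a start site, and 7 of the 10 members had one; E2f4, E2f5 and Rb1 had no entry. Of all 32851 windows, 2.26% hold the longer motif and 9.57% the core. The median GC content was 66.7% for the members' 9 windows and 52.7% for all windows. The longer motif lies in windows of E2f2, E2f3, E2f7 and Rbl1, and E2f8 has the core alone. E2f2 and E2f3 each have a further window, which holds neither motif nor core. The windows of E2f1 and E2f6 hold neither, which says only that these letters are not in those windows. The table lists 1 window for E2f1, which may belong to an alternative start, and other starts of that gene were not searched. In the lines below, which show the matches before the start site and for E2f2 that after it, capitals mark the motif or core.
E2f2, chr4:136172302-136172323, plus strand: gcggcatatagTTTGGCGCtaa
E2f3, chr13:29986064-29986163, minus strand: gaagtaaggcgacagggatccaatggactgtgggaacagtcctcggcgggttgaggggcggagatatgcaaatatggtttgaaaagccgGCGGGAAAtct
E2f7, chr10:110745209-110745358, plus strand: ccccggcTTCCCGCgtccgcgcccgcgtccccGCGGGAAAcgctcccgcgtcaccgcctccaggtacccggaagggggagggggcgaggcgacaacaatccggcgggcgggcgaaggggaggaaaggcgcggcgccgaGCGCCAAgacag
E2f8, chr7:48881647-48881746, minus strand: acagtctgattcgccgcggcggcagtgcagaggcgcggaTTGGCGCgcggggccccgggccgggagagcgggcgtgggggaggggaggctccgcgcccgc
Rbl1, chr2:157204535-157204634, minus strand: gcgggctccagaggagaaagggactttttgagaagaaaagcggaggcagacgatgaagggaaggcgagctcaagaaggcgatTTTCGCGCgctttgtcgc

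The match begins 18 bases before the start in Rbl1, 11 before it in E2f3 and 198 before it in E2f7, and at base 40 after it in E2f2. E2f7 holds 3 cores, the most among the members with a window. Genes with the longer motif had log2 ratios from -1.01 (E2f2) through -0.13 (Rbl1) and -0.11 (E2f7) to 0.56 (E2f3), so the match did not go with 1 direction. Among the targets at the passage into S phase, 41 of 51 had a window. The longer motif lies in 34.7% of their 49 windows and the core in 65.3%, with a median GC content of 61.3% against 52.7% for all windows. The 28 targets with a core in a window had a median log2 ratio of -0.45 and the 13 without a core -0.56. The mitotic list had the longer motif in 3.57% of 28 windows and the core in 21.4%, which is above the 9.57% of all windows. It had TTTGAA, the letters of the cell cycle genes homology region that MuvB binds, on either strand in 75.0%, against 17.9% of all windows. Among the members TTTGAA lies in windows of E2f2, E2f3 and E2f8, for E2f2 in the window without the E2F match.

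Circular RNAs, identified from back-splice junction reads, gave another readout of the same libraries, with 11665 and 9433 junction reads. E2f3 and E2f5 were the 2 members that hosted a listed circRNA, 1 each. The exonic circRNA of E2f3 (chromosome 13, 29918576 to 29920225, minus strand, spliced length 332 bases, coordinates as deposited and of uncertain build) had 0 junction reads without manganese and 5 with it. Set against a floor of 3 reads in the untreated library, and with the 5 reads taken as exact, the bound is 2.06-fold. The exact binomial (Clopper-Pearson) interval, which also counts the error of the 5 reads, allows a ratio as low as 1.13. Of 2253 circRNAs, 6.21% had 0 reads in the untreated library and at least 5 in the other. The circRNA of E2f5 (chromosome 3, 14587310 to 14588313, plus strand) had 4 reads without manganese and 3 with it, which gives 0.93 [0.14 to 5.48] for the ratio of their shares. A circRNA of Tfdp2 (chromosome 9, 96223094 to 96232748, plus strand) also had 4 and 3 reads.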

How the data were processed

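The submitters' processing notes name StringTie, Bowtie2, fastp 0.18.0 and build mm9. What each did, which program counted reads and which annotation it used is not stated in the labels or headers. The authors deposited estimated counts per gene, not whole for 13.3% of genes, and FPKM values. The authors' deposited log2 fold change is the ratio of FPKM values with 0 written as 0.001, and the deposited p-values come from a test the headers do not name and are not used. The circRNA table holds deposited junction read counts and RPM by the authors. Per the labels, columns were matched to libraries by condition and RNA class. The lncRNA and miRNA tables were not used.

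Estimated counts were rounded. Ratios have exact conditional binomial (Clopper-Pearson) 95% intervals, and changes of a read ratio have exact conditional odds-ratio intervals. Reads copied by PCR and lacking molecular identifiers are not separate molecules, so all intervals, and floors of 3 counts, describe counting error alone. With 1 library per condition no test across samples was made. edgeR 4.0.16 gave only the TMM scaling. The other steps ran in Python 3.11.15 with scipy 1.17.1. The ratio, interval and motif steps were tested on simulated data.

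The members, lists and fold thresholds were chosen with earlier results of these data known. Named genes are the 10 members, 16 partners and regulators, and up to 3 highest and 3 lowest genes of each list among those where either library reached 100 reads; Mybl1, Dbf4, Ccnd2, Arid4a, Pcgf6, Ring1, Tpx2, Hmmr, Bbc3, Trp53inp1, genes at 0 reads and cell markers were named after their values were seen. A comparison of protein sequences was planned but not made. Ratios of genes with shared or overlapping models are uncertain. Values of a few genes under this rule are not reported here.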

Additional observations from a re-analysis of the deposited data

How the results depend on the processing

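Of 50 values of the 10 members under 5 alternatives (median-ratio scaling, TMM scaling, the deposited fold change, a pseudocount of 5 and unrounded counts), 46 stayed within the counting interval of the reported ratio, 4 moved outside it and 0 of the members past 1.5-fold turned their sign. The 4 were E2f2 at -1.19 with median-ratio and -1.18 with TMM scaling, and E2f4 at -0.63 and -0.62. The shift of all genes by 0.18 sets these by construction. Members at least 1.5-fold higher numbered 2 with the deposited fold change, where E2f3 joins Rb1, and 0 by 2-fold. For the S-phase targets the median was -0.74 with median-ratio and -0.73 with TMM scaling. Of them 3 were at least 1.5-fold higher with the deposited fold change, beside 21.7% of all measured genes. By 2-fold 0 were higher and 3 were lower, beside 7.26% and 1.69% of all measured genes. Among genes with whole deposited counts, an alternative chosen after seeing the data, 0 were at least 1.5-fold higher. For the mitotic list the median was -0.087 with median-ratio and -0.081 with TMM scaling, with 3 higher and 2 lower under both, and 0 and 0 by 2-fold. No paired analysis was possible because each condition had 1 library. Depth limits E2f5, E2f6, E2f7, E2f8 and Rbl1, whose intervals include 0, and 1 library per condition limits them all.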
